A study of Mus musculus with 6 samples.

Results

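The 10 genes described here encode products that neutrophils make late in their development, when secondary (specific) and tertiary (gelatinase) granules are filled: Camp, Ltf, Ngp, Lcn2, Mmp8, Mmp9, S100a8, S100a9, Trem3 and Anxa1. They were read from every probe set of the array that the platform annotation assigns to exactly 1 gene symbol, where that symbol is one of these. This gave 12 probe sets for 10 genes, of 45037 probe sets tested and 18193 genes named. Mmp9 and Anxa1 had 2 probe sets each and the other genes had 1.

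All samples came from the haematopoietic progenitor clone C6, a single myeloid clone of mouse cells with the background Rosa26rtTA C57BL/6J, in which the doxycycline-dependent transactivator is expressed from the Rosa26 locus. The clone carries the vector pRRL.TET.Evi1.IRES.EGFP, from which the drug induces murine Evi1 in a codon-optimized form together with a green fluorescent protein, and the submitters describe its growth as Evi1 dependent. Evi1, a product of the Mecom locus, is a transcription factor with zinc fingers. The withdrawal group (3 arrays) was taken 48 h after doxycycline had been removed, and the doxycycline group (3 arrays) was kept under 1 µg/ml of the drug. Both groups grew in S3F11 medium with murine stem cell factor, murine interleukin 3, human Flt3 ligand and human interleukin 11. The question is which transcripts change when Evi1 is no longer induced, and the answer belongs to this clone. The groups also differ in the drug itself, and no array had the drug without the vector. Effects of the drug and of Evi1 therefore cannot be told apart here. Nothing in the labels ties the replicates to separate cultures, and the spread behind the p-values may therefore be technical.

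Neutrophils build their granules in sequence as they mature. Promyelocytes fill primary granules with myeloperoxidase and serine proteases, myelocytes and metamyelocytes fill secondary granules with antimicrobial and iron-binding proteins, and band cells fill tertiary granules with gelatinase. The transcripts of each wave are made mainly at its own stage, under the control of transcription factors that include the C/EBP family, PU.1 and Gfi1. S100a8 and S100a9 differ from the rest in that their products form a complex which lies mainly in the cytosol, and Trem3 in that it encodes a surface receptor.

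Each value below is the authors' log2 expression value made with RMA, per probe set and array, and each difference is withdrawal minus doxycycline on that scale. Differences carry the standard error and 95% interval of limma, a linear model that shares an estimate of the spread between probe sets, with n = 3 arrays per group. A gene is said to have risen or fallen only where its p-value, adjusted by Benjamini-Hochberg over all 45037 probe sets, was below 0.05. Where a gene had several probe sets, counts of genes use the one with the highest mean over the 6 arrays.

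Array medians (log2) ranged from 5.22 to 5.27. A principal component analysis of the 22518 probe sets above the median level put 31.9% of the variance on its second component, where withdrawal replicate 3 scored -22.99 and doxycycline replicate 1 scored -11.43 while the others scored above 0. Results are therefore also given without these 2 arrays, called below the arrays that stood apart. Signal at the 3' end of beta-actin exceeded that at its 5' end by 0.45 to 0.48 on the log2 scale in the withdrawal arrays and by 0.46 to 0.57 in the doxycycline arrays, so this sign of RNA quality overlapped between the groups. The 3 probe sets of Mecom lay between 2.57 and 3.76 in the withdrawal arrays and between 2.64 and 3.88 in the doxycycline arrays. They may not read the codon-optimized transgene and so do not check the labels. Of 10 progenitor markers 9 had a mean above the median of all probe sets, among them the receptor gene Kit (9.55 in withdrawal and 9.29 in doxycycline cells) and the leukocyte gene Ptprc (12.46 in withdrawal and 12.61 in doxycycline cells). The dim one was Meis1, and the only progenitor marker called was Cd34, which fell by 0.51 with all arrays and was not called without any 1 array except withdrawal replicate 1.

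Of the 10 genes, Trem3 and Camp rose after withdrawal and none fell, by limma. Trem3 was 1.67-fold and Camp 1.28-fold higher. Across all named genes 1.2% were called higher and 1.57% lower, and among the 1930 genes at least as bright as the dimmest member, Mmp9, 2.44% were called higher and 1.92% lower. At an unadjusted p below 0.05, 3 of the 10 were higher (Trem3, Camp and Anxa1) and 2 were lower (Mmp8 and Mmp9), against 8% of all named genes higher and 8.26% lower. The median difference of the 10 genes was 0.14, against 0.01 over all genes. When any 1 array was left out only Trem3 was still called, and without both arrays that stood apart neither gene was called, in a fit that called 0.121% of all genes higher and 0.302% lower (7.07% and 7.04% at an unadjusted p below 0.05).

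The withdrawal and doxycycline arrays did not overlap for 8 of the 10 genes. In 6 of them (Camp, Ltf, Ngp, Lcn2, Trem3 and Anxa1) every withdrawal array lay above every doxycycline array, and in Mmp8 and Mmp9 every withdrawal array lay below. Over all named genes the corresponding shares were 12.4% above and 12.2% below, and among genes at least as bright as Mmp9 they were 24% above and 22.7% below. The 2 genes with overlapping groups were S100a8 and S100a9. In bulk RNA, a larger share of cells that make a transcript and more transcript per cell cannot be told apart.

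**Figure D1:**
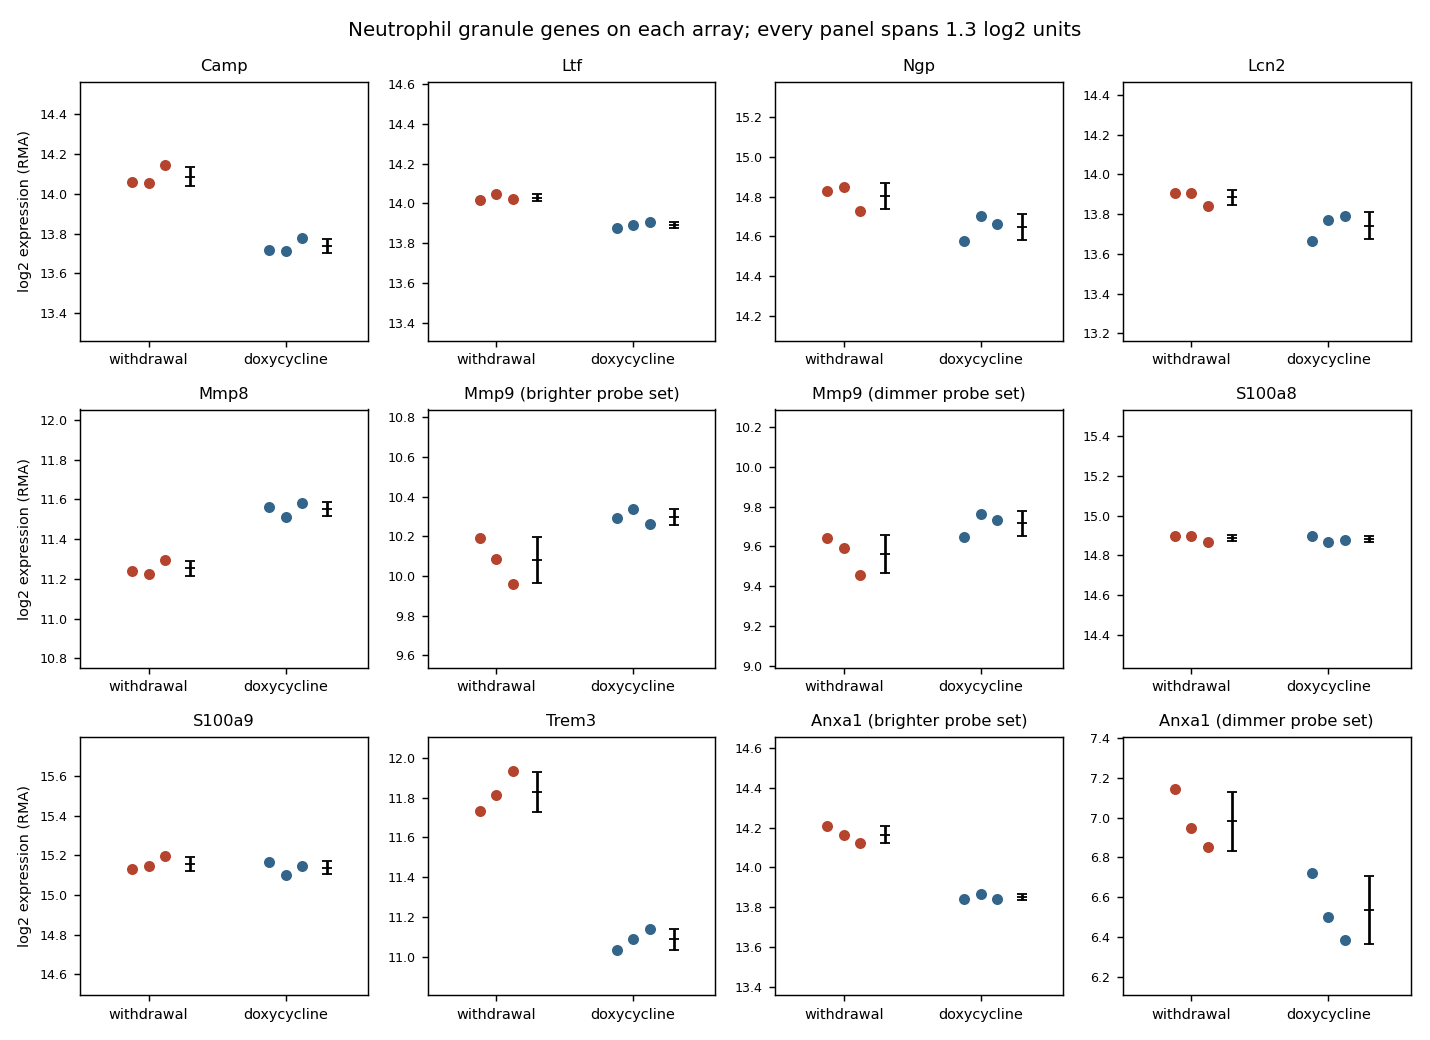
Log2 expression (RMA, vertical axis) of the 12 probe sets on each array, withdrawal arrays left in red and doxycycline arrays right in blue, with the mean and SD of 3 arrays in black; every panel spans the same range. Trem3 shows the widest gap between groups (0.60), the S100a8 and S100a9 groups overlap, and Mmp8 and Mmp9 lie lower after withdrawal.

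Camp encodes the cathelicidin precursor, from which an antimicrobial peptide is cut once the secondary granule has released it. Its probe set read 14.06, 14.06 and 14.14 in the withdrawal arrays, against 13.72, 13.71 and 13.78 in the doxycycline arrays. Each withdrawal array exceeded each doxycycline array, with a gap of 0.28 between the groups. The difference was 0.35 ± 0.06 (95% interval 0.20 to 0.50, limma adjusted p = 0.0430). The call was lost when any 1 of the 6 arrays was left out (adjusted p from 0.0932 to 0.166), with differences that stayed between 0.32 and 0.37.

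Ltf encodes lactoferrin, an iron-binding protein of the transferrin family that withholds iron from microbes. It read 14.02, 14.05 and 14.02 in the withdrawal arrays, against 13.87, 13.89 and 13.91 in the doxycycline arrays. The groups were separated by 0.11, and the SD pooled over them, 0.017, was the smallest among the 8 members whose groups did not overlap. The difference of 0.14 ± 0.06 did not pass (95% interval -0.002 to 0.28, limma adjusted p = 0.356).

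Ngp, the neutrophilic granule protein, is related in sequence to the cathelin part of Camp. It read 14.83, 14.85 and 14.73 in the withdrawal arrays, against 14.58, 14.70 and 14.66 in the doxycycline arrays. Its groups were separated by only 0.03, between withdrawal replicate 3 and doxycycline replicate 2. The difference of 0.16 ± 0.07 did not pass (95% interval -0.01 to 0.32, limma adjusted p = 0.383).

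Lcn2, lipocalin 2, binds bacterial siderophores and so keeps iron from bacteria. It read 13.91, 13.91 and 13.84 in the withdrawal arrays, against 13.67, 13.77 and 13.79 in the doxycycline arrays. Doxycycline replicate 1 was the low array, and the groups were separated by 0.05. The difference of 0.14 ± 0.07 did not pass (95% interval -0.02 to 0.30, limma adjusted p = 0.408). The upper ends of the intervals of Ltf, Ngp and Lcn2 correspond to differences of at most 0.32 under the model. These probe sets were among the brightest, and whether saturation or the normalization hides a larger rise was not tested. The spread behind the intervals may also be technical only.

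The 2 matrix metalloproteinases had differences of the opposite sign to these 4 genes. Mmp8, the neutrophil collagenase of secondary granules, read 11.24, 11.23 and 11.30 in the withdrawal arrays, against 11.56, 11.51 and 11.58 in the doxycycline arrays. The groups were separated by 0.22, and the difference of -0.30 ± 0.06 did not pass (95% interval -0.45 to -0.15, limma adjusted p = 0.0670). Mmp9, gelatinase B, is the enzyme after which tertiary granules are named. Its brighter probe set read 10.19, 10.09 and 9.96 in the withdrawal arrays, against 10.29, 10.34 and 10.26 in the doxycycline arrays, with a difference of -0.22 ± 0.08 that did not pass (limma adjusted p = 0.261). Its other probe set read 9.64, 9.59 and 9.46 in the withdrawal arrays, against 9.65, 9.76 and 9.74 in the doxycycline arrays, with a difference of -0.15 ± 0.08 (limma adjusted p = 0.430). Both probe sets of Mmp9 were lowest in withdrawal replicate 3, one of the arrays that stood apart. In the dimmer one the groups were separated by less than 0.01. The 95% interval of Mmp8 excluded 0 and lay entirely below that of Camp, which ran from 0.20 to 0.50. That of Mmp9 excluded 0 on its brighter probe set (-0.40 to -0.03) and not on the other (-0.33 to 0.02). These intervals are not adjusted for the number of probe sets tested, and neither Mmp8 nor Mmp9 passed.

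S100a8 and S100a9 encode the 2 subunits of calprotectin, a calcium- and zinc-binding complex that makes up much of the protein of the neutrophil cytosol. S100a8 read 14.90, 14.90 and 14.87 in the withdrawal arrays, against 14.90, 14.87 and 14.87 in the doxycycline arrays, with a difference of 0.01 ± 0.06 (95% interval -0.13 to 0.15, limma adjusted p = 0.979). S100a9 read 15.13, 15.15 and 15.20 in the withdrawal arrays, against 15.17, 15.10 and 15.15 in the doxycycline arrays, with a difference of 0.02 ± 0.06 (95% interval -0.13 to 0.17, limma adjusted p = 0.931). The groups of both genes overlapped. S100a9 had rank 1 and S100a8 rank 2 of the 45037 probe sets on every one of the 6 arrays, in withdrawal as in doxycycline cells. These 2 probe sets thus sat at the top of the measured range, and whether saturation or the normalization to a shared distribution hides a change there was not tested. The probe set of S100a8 carries the suffix with which the manufacturer marks probes shared between transcripts. The 2 genes are direct neighbours on chromosome 3.

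Ngp, Camp, Ltf, Lcn2 and the brighter probe set of Anxa1 were bright as well, and Mmp8 was less so. Over the 6 arrays Ngp ranked between 4 and 16, Camp between 88 and 182 and Ltf between 113 and 164. Lcn2 ranked between 149 and 186, the brighter probe set of Anxa1 between 74 and 167, and Mmp8 between 1100 and 1447. A rank of signal also reflects how well the probes of a set bind and so does not order the genes by abundance. It does show that these probe sets, other than that of Mmp8, gave some of the strongest signals on the arrays of both groups. This held with the inducer present as well as without it.

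Trem3 encodes a receptor of the immunoglobulin superfamily on mouse myeloid cells that signals through the adaptor DAP12. It read 11.73, 11.81 and 11.94 in the withdrawal arrays, against 11.03, 11.09 and 11.14 in the doxycycline arrays. The gap of 0.60 between the groups was larger than the whole range within either. The difference was 0.74 ± 0.08 (95% interval 0.56 to 0.92, limma adjusted p = 0.00431). The call held without any 1 array (adjusted p from 0.0105 to 0.0342) and was lost without both arrays that stood apart, where the difference was 0.66 with limma adjusted p = 0.0767. Its adaptor gene Tyrobp averaged 13.95 ± 0.01 in withdrawal and 13.96 ± 0.02 in doxycycline arrays (SD, n = 3 each), a difference of -0.01 (limma adjusted p = 0.967). Of 8 measured relatives of the Trem family, none was called by limma in either direction on its brightest probe set, and 2 were higher at an unadjusted p below 0.05. The most different were Pilrb1 (0.27, limma adjusted p = 0.106) and Trem1 (0.25, limma adjusted p = 0.131), an activating receptor of neutrophils and monocytes. A dimmer probe set of Trem1 averaged 6.67 ± 0.04 in withdrawal and 6.14 ± 0.10 in doxycycline arrays (SD, n = 3 each) and was called higher, by 0.53 ± 0.08 (limma adjusted p = 0.0175).

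Anxa1 encodes annexin A1, a calcium-dependent phospholipid-binding protein that neutrophils hold in the cytosol and in gelatinase granules and that limits their recruitment. Its brighter probe set read 14.21, 14.17 and 14.12 in the withdrawal arrays, against 13.84, 13.87 and 13.84 in the doxycycline arrays. These groups were separated by 0.26, and the difference of 0.31 ± 0.06 fell just short of the threshold (95% interval 0.17 to 0.46, limma adjusted p = 0.0550). The other probe set, far dimmer, read 7.14, 6.95 and 6.85 in the withdrawal arrays, against 6.72, 6.50 and 6.38 in the doxycycline arrays. Its difference of 0.45 ± 0.11 had the same direction and did not pass either (limma adjusted p = 0.110). With the mean of both probe sets the difference was 0.38 and the gene was called (limma adjusted p = 0.0302). That fit averaged the probe sets of every gene and so adjusted over fewer rows than the tests above. In it the limma adjusted p also fell for Camp (0.0430 to 0.0147) and Mmp8 (0.0670 to 0.0251), whose differences were unchanged. Whether the averaging or the fewer rows brought the call of Anxa1 was not tested.

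**Figure D2:**
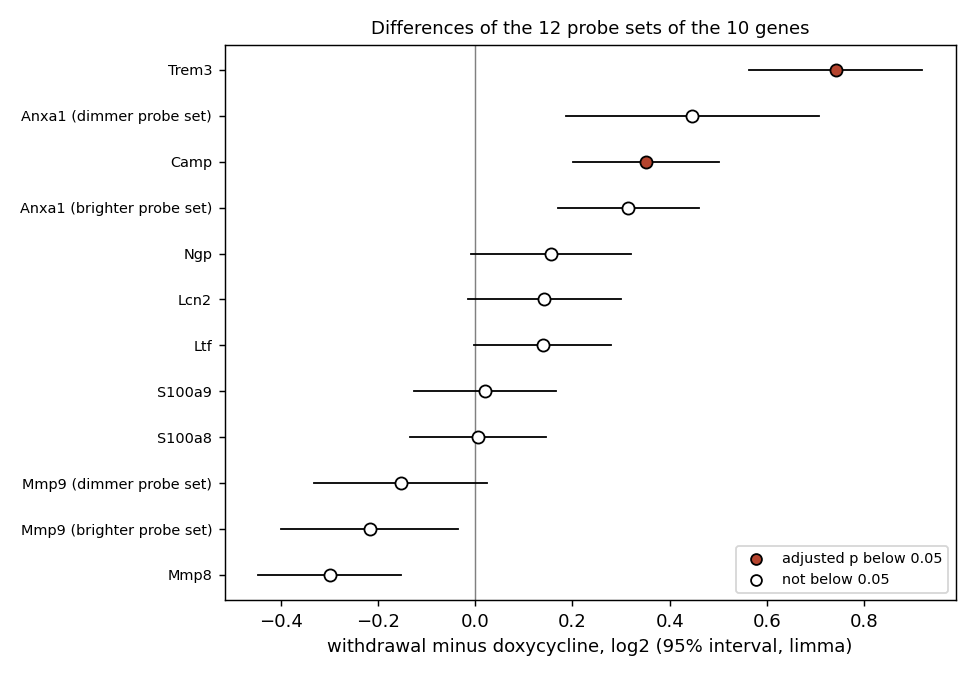
Difference between withdrawal and doxycycline arrays (horizontal axis, log2) of each of the 12 probe sets with its 95% interval from limma; filled points have an adjusted p below 0.05. Trem3 (0.74) and Camp (0.35) are filled, S100a8 and S100a9 lie at 0, and the 3 probe sets of Mmp8 and Mmp9 lie below 0.

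The calls depended on how the spread was modelled. The SD pooled over the 2 groups was 0.017 for Ltf, 0.017 for S100a8 and 0.042 for Camp, whereas the SD used in their tests, after sharing across all probe sets, was 0.074, 0.074 and 0.079. In another fit the shared estimate was allowed to follow the level of the probe set and to be robust to outliers. There 6 of the 10 genes were higher and 1 lower, against 3.48% and 4.02% of all genes. That share covers genes of all levels, and a share among genes as bright as the members was not taken in this fit. The 6 were Trem3, Camp, Anxa1, Ltf (adjusted p = 0.00907), Ngp (adjusted p = 0.0393) and Lcn2 (adjusted p = 0.0465), and the lower gene was Mmp8 (adjusted p = 0.000875), all in limma. Mmp9 (adjusted p = 0.0584), S100a8 and S100a9 were not called in that fit either.

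**Figure D3:**
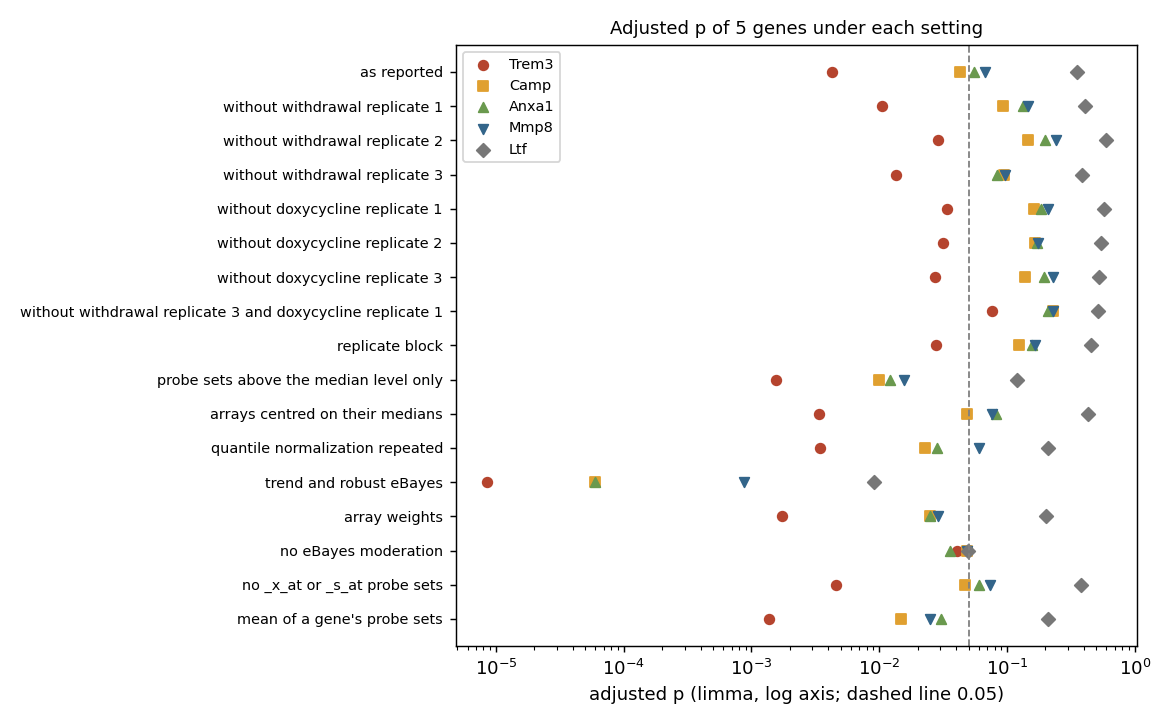
Adjusted p from limma (horizontal log axis, dashed line at 0.05) of Trem3, Camp, Anxa1, Mmp8 and Ltf under each way of fitting (vertical axis). Trem3 lies left of the line in every row except the one without both arrays that stood apart (0.0767), and Camp, Anxa1, Mmp8 and Ltf move across it.

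Promoter sequence was available for 8 of the 10 genes, each as 250 bases before and 50 after the annotated start, from RefSeq on GRCm38.p6. Trem3 and Mmp9 had no entry. The sequences of Camp, the called granule gene, of Ltf, Ngp and Lcn2, secondary granule genes whose withdrawal arrays also all lay above, and of Mmp8, whose withdrawal arrays all lay below, are shown to set them side by side. They lie at chr9:109849407-109849706 (minus strand), chr9:111019042-111019341 (plus strand), chr9:110419558-110419857 (plus strand), chr2:32387690-32387989 (minus strand) and chr9:7558179-7558478 (plus strand). Capitals mark matches to the C/EBP-type motif TTGCNNAA on either strand, where N is any base.
Camp: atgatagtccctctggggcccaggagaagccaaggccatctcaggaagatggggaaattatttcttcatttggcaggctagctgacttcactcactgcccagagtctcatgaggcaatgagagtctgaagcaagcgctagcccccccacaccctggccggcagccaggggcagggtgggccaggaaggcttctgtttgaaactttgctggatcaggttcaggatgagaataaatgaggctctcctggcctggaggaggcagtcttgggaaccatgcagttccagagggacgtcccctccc
Ltf: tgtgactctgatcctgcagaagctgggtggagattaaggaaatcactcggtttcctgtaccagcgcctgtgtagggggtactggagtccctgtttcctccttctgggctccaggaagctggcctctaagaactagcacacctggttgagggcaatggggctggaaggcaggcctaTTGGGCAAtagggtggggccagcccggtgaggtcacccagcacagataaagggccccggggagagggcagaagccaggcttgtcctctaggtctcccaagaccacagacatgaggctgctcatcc
Ngp: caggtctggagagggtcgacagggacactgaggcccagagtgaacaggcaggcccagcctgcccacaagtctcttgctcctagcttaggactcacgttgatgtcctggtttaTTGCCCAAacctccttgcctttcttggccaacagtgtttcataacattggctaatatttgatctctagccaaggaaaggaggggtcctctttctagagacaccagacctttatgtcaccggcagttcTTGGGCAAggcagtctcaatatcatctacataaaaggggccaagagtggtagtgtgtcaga
Lcn2: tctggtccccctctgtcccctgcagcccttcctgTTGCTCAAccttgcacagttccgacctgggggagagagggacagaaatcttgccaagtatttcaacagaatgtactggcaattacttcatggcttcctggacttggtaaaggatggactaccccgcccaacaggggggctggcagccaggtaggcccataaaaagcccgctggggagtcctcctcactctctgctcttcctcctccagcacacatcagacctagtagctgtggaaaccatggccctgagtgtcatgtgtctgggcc
Mmp8: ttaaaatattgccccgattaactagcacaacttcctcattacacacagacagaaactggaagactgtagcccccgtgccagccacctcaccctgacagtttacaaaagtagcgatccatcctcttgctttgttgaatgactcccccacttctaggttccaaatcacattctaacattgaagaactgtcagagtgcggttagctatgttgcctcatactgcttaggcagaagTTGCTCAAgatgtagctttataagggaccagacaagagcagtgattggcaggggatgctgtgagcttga

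The motif TTGCNNAA (reverse complement TTNNGCAA) occurred in 6 of the 8 promoter windows and in 10.8% of the 32851 windows in the table. Ngp had 2 matches, at bases 113 to 120 and 240 to 247 of the window. Ltf had 1 at bases 176 to 183, Lcn2 1 at bases 35 to 42 and Mmp8 1 at bases 232 to 239. S100a9 and Anxa1, not printed, had 1 each, and the windows of Camp and S100a8 had none. Genes above and below in the withdrawal arrays both carried it, and the same letters TTGCTCAA stood in Lcn2 and Mmp8. The GATA motif AGATAA was found in 2 of the 8 windows (Ltf and S100a9) and in 11.2% of all, and the ETS motif AGGAAGT in 2 (Mmp8 and S100a8) and in 9.35% of all. The Evi1 motifs GACAAGATA and GAAGATGAG were in none of the 8 windows and in 0.119% and 0.399% of all. Both strands were searched, and these motifs were listed with earlier results of these data known. Camp, Ngp and Ltf are also near each other on chromosome 9, with 8 protein-coding genes between Camp and Ngp and 20 between Ngp and Ltf.

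Of 38 other measured genes of late neutrophils, 6 rose, 1 fell and 31 did not pass, with a median difference of 0.11. Over all named genes 1.2% rose and 1.57% fell, with a median of 0.01, which is also the background of the lists that follow. Dgat2, an enzyme of triglyceride synthesis, rose by 0.65 ± 0.07 (limma adjusted p = 0.00408), and the rises of Slpi, an inhibitor of serine proteases (0.40), Ceacam1, an adhesion molecule (0.43), Cxcr4, a chemokine receptor that holds neutrophils in the marrow (0.49), Tcn2, a carrier of cobalamin (0.40), and Orm1, an acute phase protein (0.67), were also called. Orm1 was dim, at 5.97 in withdrawal and 5.30 in doxycycline arrays. Only 1 of 8 probe sets of Ceacam1 and 1 of 5 of Tcn2 was called, though all had the same sign. Arg1, arginase 1, fell by 1.00 to 5.39 in withdrawal arrays, against 6.39 in doxycycline arrays. Adpgk (0.33) and Ncf4, a subunit of the phagocyte oxidase (0.29), did not pass. Leaving out single arrays reduced the rises to 3 without withdrawal replicate 1 or 3, and to Dgat2 alone without any of the other 4 arrays. The fall of Arg1 held only without withdrawal replicate 1 or 3. Without both arrays that stood apart, 0 of the 38 were called by limma in either direction. At an unadjusted p below 0.05 in that fit 14 were higher and 3 lower, against 7.07% and 7.04% of all named genes.

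The earlier wave of granule genes is given beside the later one. Of 13 measured genes of a primary granule list 6 rose and none fell by limma (1 was lower at an unadjusted p below 0.05). Their median difference was 0.32. The list is broad, and not every gene on it encodes a classical primary granule protein. Elane, neutrophil elastase, differed by 0.74 ± 0.07 (limma adjusted p = 0.00281). Fcnb, ficolin B, differed by 0.83, Cst7, cystatin F, by 1.08 and Nkg7 by 1.32. Mpo, myeloperoxidase, differed by 0.32 (limma adjusted p = 0.0580) and did not pass, and Ctsg, cathepsin G, differed by 0.32 and did (limma adjusted p = 0.0492). Ctsg lost its call without any 1 array and Gstm1 (0.74) lost it without any 1 other than withdrawal replicate 3, while Elane, Fcnb, Cst7 and Nkg7 were called whichever array was left out. Without both arrays that stood apart 3 genes of this list rose (Cst7, Fcnb and Nkg7), against 0 of the 10 later ones. Elane, Mpo, Ctsg and Prtn3 were not called in that fit. The shares called were 46.2% of the primary list and 20% of the 10 genes, over lists of different size, and the difference between them was not tested.

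Among 25 measured transcription factors and regulators of granule genes, 4 rose and none fell by limma (1 was lower at an unadjusted p below 0.05). Cebpe, of the C/EBP family, was not among these 25 and has no reading here. Cebpa, needed to enter the granulocyte lineage, read 9.97, 9.98 and 9.93 in the withdrawal arrays, against 9.27, 9.26 and 9.12 in the doxycycline arrays (difference 0.74 ± 0.07, limma adjusted p = 0.00307). Gfi1, a repressor that neutrophil development needs, read 11.42, 11.44 and 11.37 in the withdrawal arrays, against 10.87, 10.86 and 10.86 in the doxycycline arrays (difference 0.54 ± 0.06, limma adjusted p = 0.00639). In both genes the groups were far apart relative to their spread. Ets1 (0.55) and the circadian gene Per3 (0.47) were called too, and Irf8, a factor of the monocyte lineage (-0.53, limma adjusted p = 0.0537), and Cebpb (0.30, limma adjusted p = 0.113) were not. Cebpa and Gfi1 were called whichever array was left out, whereas Per3 was lost without any 1 array and Ets1 without any 1 except withdrawal replicate 2. In the fit on the other 4 arrays none of the 25 was called by limma. At an unadjusted p below 0.05 in that fit 8 were higher and 1 lower, against 7.07% and 7.04% of all named genes.

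Among 20 measured receptors, adaptors and inhibitors that act on the products of the 10 genes, 2 rose and none fell by limma (1 was lower at an unadjusted p below 0.05). Reck, a membrane-anchored inhibitor of matrix metalloproteinases, averaged 8.41 in withdrawal and 7.89 in doxycycline arrays (difference 0.52, limma adjusted p = 0.0201), and Cd69 rose by 0.67. The call of Reck held only without withdrawal replicate 3, that of Cd69 was lost without doxycycline replicate 3, and neither was called without both arrays that stood apart. The secreted inhibitor genes Timp1 (-0.11) and Timp2 (-0.06) and the lipocalin 2 receptor gene Slc22a17 (0.01) did not pass. Timp1 was dim, at 4.19 in withdrawal and 4.30 in doxycycline arrays, and 5 of the 20 genes were dimmer than the median probe set.

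Relatives in the same protein families showed changes of their own. Of 10 other S100 genes 1 fell and none rose: S100a4, which is linked to cell motility, averaged 11.09 ± 0.01 in withdrawal and 12.24 ± 0.04 in doxycycline arrays (SD, n = 3 each), a difference of -1.15 ± 0.06 (limma adjusted p = 0.000274) that was called with any 1 array or both left out. S100a5 (-0.65) did not pass. S100a10 did not pass on its brightest probe set (-0.32), and of its other 2 probe sets, which were lower as well, 1 was called (-0.39, limma adjusted p = 0.0411). Of 10 other annexins, Anxa3, a neutrophil granule annexin, rose by 0.53 (limma adjusted p = 0.00796) and Anxa5 fell by 0.36 (limma adjusted p = 0.0345). The call of Anxa3 was lost without withdrawal replicate 2, doxycycline replicate 1 or doxycycline replicate 3, and that of Anxa5 without any 1 array; neither was called without both arrays that stood apart. None of 13 other matrix metalloproteinase genes was called by limma, with 1 lower at an unadjusted p below 0.05, and 8 of these 13 were dimmer than the median probe set. Of 10 genes of lipocalin-like and transferrin-like proteins and the transferrin receptor, only Orm1 was called, and without any 1 array except withdrawal replicate 1 it was not. Tfrc, the transferrin receptor, differed by 0.30 (limma adjusted p = 0.0603).

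**Figure D4:**
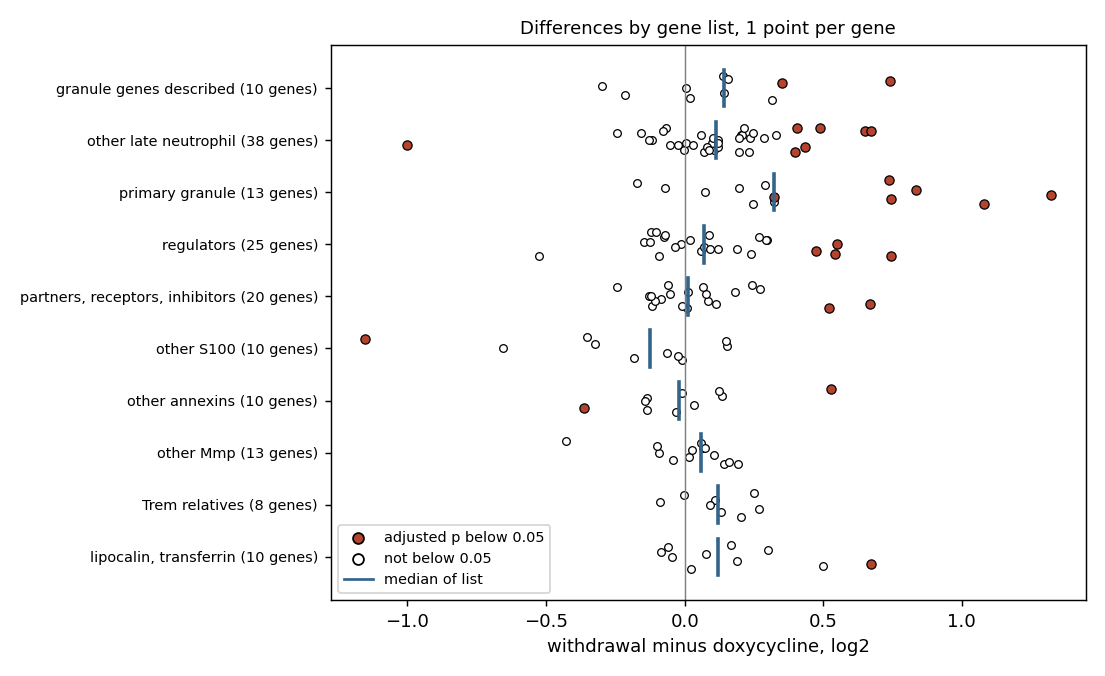
Difference between withdrawal and doxycycline arrays (horizontal axis, log2) of each measured gene, by list (vertical axis); filled points have an adjusted p below 0.05 in limma and blue bars are list medians. The 10 granule genes have a median of 0.14, the primary granule list one of 0.32, and S100a4 lies at -1.15 among the other S100 genes.

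By distance between centred values over the 6 arrays, among 7858 other genes with a mean of at least 7, the genes most like Trem3 were Nucb2 (distance 0.13), Tmem216 (0.16) and Slc40a1 (0.16), which exports iron from cells. They differed by 0.65, 0.76 and 0.77. Those most like Camp were Clec4a2 (distance 0.06), the primary granule gene Ctsg (0.06) and the Fc receptor gene Fcgr4 (0.06), which differed by 0.37, 0.32 and 0.39. Each distance is Euclidean, the square root of the summed squared differences between the centred log2 values of both genes over all 6 arrays. A short one reflects a like difference between the groups and a like scatter within them.

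Markers of other cell types moved in the same arrays. Of 7 measured eosinophil markers 6 rose, and the log2 of their summed signal was 13.71 to 13.77 in withdrawal and 13.16 to 13.25 in doxycycline arrays. Of 11 basophil and mast cell markers 5 rose (sums of 15.13 to 15.18 in withdrawal and 14.51 to 14.55 in doxycycline arrays). Of 11 monocyte and macrophage markers 4 fell (sums of 13.19 to 13.22 in withdrawal and 13.51 to 13.53 in doxycycline arrays), and of 8 megakaryocyte markers 4 fell (10.76 to 10.85 in withdrawal and 11.34 to 11.47 in doxycycline arrays), of which 2 were still called without doxycycline replicate 2 or 3. Of 8 erythroid markers only Rhag fell (-2.22). Their sums of 12.56 to 12.61 in withdrawal and 12.32 to 12.37 in doxycycline arrays were carried by Tfrc, which averaged 12.53 in withdrawal and 12.23 in doxycycline arrays and was not called, and the sums of the other 7 were 7.93 to 8.03 in withdrawal and 8.53 to 8.63 in doxycycline arrays. Of 8 lymphoid markers only Cd79b fell (-0.57), a call lost without any 1 array, and the sums of 9.60 to 9.63 in withdrawal and 9.52 to 9.64 in doxycycline arrays overlapped. Without both arrays that stood apart, 1 eosinophil and 3 basophil and mast cell markers rose and 2 megakaryocyte markers fell. In that fit 0 monocyte and macrophage markers were called in limma. At an unadjusted p below 0.05 in it, 8 of these were lower, against 7.04% of all named genes. The calls of monocyte and macrophage markers were lost without any 1 array other than withdrawal replicate 3, which left 3. The same sum over the 10 granule genes was 17.37 to 17.39 in withdrawal and 17.24 to 17.26 in doxycycline arrays. The part of these cell types in the values of the 10 genes was not tested.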

How the data were processed

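Total RNA of 6 samples was amplified to cDNA, labelled with biotin and hybridised to 6 mouse arrays, per the labels' protocols. The authors deposited 1 log2 value per probe set and array, made with RMA per the submitters' processing notes. Further settings of RMA are not stated in the labels, and that the values are log2 was read from their range. RMA brings the arrays to one distribution, which would remove a shift shared by most transcripts.

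After 64 control probe sets had been left out of 45101 rows, 45037 were tested. Of these, 34945 had 1 gene symbol in the platform annotation, 932 several and 9160 none. None of those with several held a member. RefSeq gene identifiers changed 0 symbols. The test was limma 3.58.1 (lmFit, eBayes; R 4.3.3) with no covariate, 4 residual and 3.54 prior degrees of freedom, two-sided, with Benjamini-Hochberg adjustment over all probe sets at 0.05. The number of arrays limits the precision.

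The members and the 16 other gene lists, motifs and rules were chosen with earlier results of these data known. All members were named, and in each list the called genes and up to 2 with the largest differences among the rest; lists of at most 12 genes were free. Tyrobp, Timp1, Timp2 and Slc22a17 were named for their roles after their values were seen. Replicate numbers were not used to pair the arrays. Steps were tested on simulated data. Figures used matplotlib 3.10.9 in Python 3.11.15.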

Additional observations from a re-analysis of the deposited data

How the results depend on the processing

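The directions of the differences of all 10 genes were kept under each alternative that gave a value, except for S100a8 and S100a9 in 1 setting. Their difference was exactly 0 when quantile normalization was repeated. They held ranks 2 and 1 on every array, so this step gives each the same value on all arrays. That 0 was fixed in advance and says nothing about a change. S100a8 had no value without shared probe sets. Over all probe sets, 88 to 256 were higher and 173 to 346 lower with 1 array left out, against 356 and 530 with all. Counts were 28 higher and 94 lower without withdrawal replicate 3 and doxycycline replicate 1, 862 and 1082 for probe sets above the median level, 1071 and 1389 with trend and robust options, 758 and 962 with array weights, and 218 and 296 without moderation. Of the 10 genes, 1 was higher and 0 lower with any 1 array left out, and 0 of either kind without both arrays that stood apart (3 higher and 1 lower at an unadjusted p below 0.05 in limma, against 7.07% and 7.04% of all named genes). With trend and robust options 6 were higher and without moderation 4. In each of these 1 was lower, Mmp8, as it was with array weights, above the median level and with each gene's probe sets averaged. The last 2 of these fits adjusted over fewer rows. In them the difference of Mmp8, which has 1 probe set, was unchanged at -0.30 (limma adjusted p = 0.0158 and 0.0251). Of the 12 probe sets, 1 was higher with any 1 array left out and 0 without both arrays, 4 above the median level, 7 with trend and robust options, 4 with array weights and 4 without moderation, and 1 was lower in each of these last 4 fits. The replicate number as a block gave 94 higher and 197 lower probe sets, and 1 of the 10 genes (1 of the 12 probe sets) higher. Camp was not called with the block (limma adjusted p = 0.125). Deviations of same-numbered arrays correlated at -0.30, 0.46 and -0.03, and the numbers were not treated as pairs. With 3 arrays per group these correlations cannot exclude a pairing. The causes of these changes were not tested, beyond the fewer arrays or probe sets that some fits hold by construction. Saturation of the brightest probe sets could not be read from the deposited values.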
